A study of Drosophila melanogaster with 3 samples.

Results

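The genes described here encode the nascent polypeptide-associated complex (NAC) of Drosophila melanogaster and its testis-type relatives. They were 8 genes taken from a list of names: Nacalpha, bic and betaNACtes1 to betaNACtes6. A gene was kept when the platform annotation gave at least 1 array feature that single symbol. That left 6 of the 8 genes, with 11 features, among 10805 named genes. The 2 genes without a feature of their own, betaNACtes3 and betaNACtes5, were not analysed here. The list was chosen by the ratios of mutant over control on these same 3 arrays, so the values of the 6 genes are given as a description and no p-value is attached to them.

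NAC is a dimer of an alpha and a beta subunit that sits on the ribosome where the new chain comes out. It shields the chain and keeps ribosomes that carry no signal sequence away from the endoplasmic reticulum. Nacalpha encodes the alpha subunit in most fly cells and bic (bicaudal) the beta subunit, and embryos of bic mutant females can form a second abdomen in place of the head. The betaNACtes genes are X-linked copies of the beta subunit type known for expression in the testis, and the annotation lists gNAC-beta, a germline beta subunit, as another name of betaNACtes3 and betaNACtes4.

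Ovaries were compared between females whose germ line was sva53 mutant and females whose germ line was sva53/+. In the first group the pole cells, which found the germ line, were taken from embryos of mothers whose germline clones were homozygous for sva53[M1], made by the FLP/FRT/DFS method; in the second they came from sva53/+ embryos. In both groups the cells were transferred to host embryos of osk homozygous mothers, which form no pole cells of their own, so the somatic cells of all ovaries were host cells. Flies were about 7 days old. The mutant was sampled in 3 separate experiments, each a pool of 2 ovary pairs labelled with Cy3. The control was 1 RNA from 3 pairs of ovaries, labelled with Cy5 and hybridised to all 3 arrays. It counts as 1 control sample, so the variation among control ovaries does not enter any test. No dye swap was made, and a difference between the dyes at a feature therefore stays in its ratio. The deposited values are ratios and hold no level in either genotype, so the tissue label could not be checked against marker levels. In whole ovaries, fewer cells of a type and less RNA per cell cannot be told apart.

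All values below are log2 ratios of sva53 over sva53/+, so a negative value means lower in the mutant. The labels name the dyes but not which one is on top; the ratio was read as Cy5 over Cy3, as this scanner software writes it, and turned. That direction is likely, and with the other reading every sign below turns, a percentage of the control signal becomes one of the mutant signal, and a rank from the lowest becomes one from the highest. The ratios spread more widely on array 1 (SD over named genes and unnamed features 0.47) than on array 2 (0.33) or array 3 (0.32), and the median of all named genes lay between -0.006 and 0.004 on each array.

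Among the testis-type beta subunit genes, betaNACtes4 had the lowest mean. It read -0.79, -1.37 and -0.82 on arrays 1, 2 and 3, a mean of -0.99 ± 0.33 (SD, n = 3), which puts the mutant signal at 50.2% of the control signal. All 3 mutant pools were low, and pool 2, not the widely spread pool 1, was the lowest. Its single feature gave a mean below all but 1.2% of named genes.

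betaNACtes6 read -0.73, -0.71 and -0.91, a mean of -0.78 ± 0.11 (SD, n = 3), or 58.2% of the control signal. It was the steadiest of the betaNACtes genes over the 3 pools. It has 2 features, at -0.82 and -0.75, and the difference between them, 0.0729, was smaller than the median range of 0.169 over the 5531 genes with 2 or more features.

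betaNACtes1, which stands apart from the other copies on the X chromosome, read -0.62, -0.46 and -0.81. Its mean was -0.63 ± 0.17 (SD, n = 3), or 64.5% of the control signal. The order of the arrays differed from that of betaNACtes4, since array 2 was the least low here.

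betaNACtes2 lay closer to 0 than the other 3 copies. It read 0.06, -0.04 and -0.36, a mean of -0.11 ± 0.22 (SD, n = 3), with array 1 above 0 and 29.7% of named genes lower. It is the next gene to betaNACtes6 on the chromosome, yet betaNACtes6 lay below it by 0.79, 0.67 and 0.55 on arrays 1, 2 and 3. The betaNACtes genes are close copies, so a hybridisation may not separate them with certainty, and no probe sequences were used here to check it. The ratios of betaNACtes2 and betaNACtes6 differed on each array by more than the SD of either gene. Whether the features read the copies separately was not tested.

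In order of the mean, betaNACtes4, betaNACtes6 and betaNACtes1 were the lowest of the measured genes, and neighbours in that order differed by no more than the larger of their SDs. The step from betaNACtes1 to bic, the next in the order, was wider than either SD. The median of the 4 betaNACtes genes was -0.68, -0.59 and -0.81 on arrays 1, 2 and 3.

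**Figure D1:**
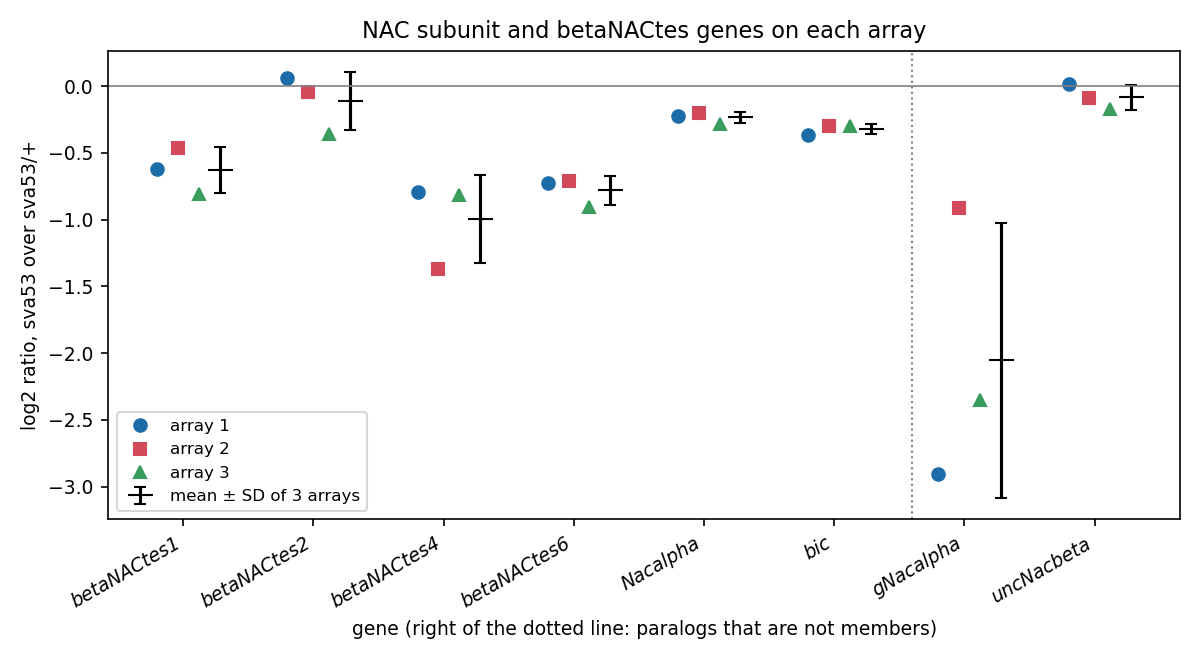
Log2 ratio of sva53 over sva53/+ (y axis) for each NAC-type gene (x axis) on arrays 1 to 3, with the mean and SD of the 3 arrays as a black bar. betaNACtes1, betaNACtes4 and betaNACtes6 lie between -1.37 and -0.46 on all arrays, Nacalpha and bic lie between -0.37 and -0.20, and gNacalpha spans -2.90 to -0.91.

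The subunits used in most cells were shifted less than betaNACtes1, betaNACtes4 and betaNACtes6, though more than betaNACtes2, and varied little. Nacalpha, the alpha subunit gene, read -0.22, -0.20 and -0.28, a mean of -0.24 ± 0.04 (SD, n = 3). Its 2 features gave means of -0.24 and -0.23, a difference of 0.00557, and only 1.79% of genes with several features had a smaller range. Its SD was smaller than that of most genes, since only 12.1% of named genes had a smaller one, against a median SD of 0.114.

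bic, the beta subunit gene, read -0.37, -0.30 and -0.30, a mean of -0.32 ± 0.04 (SD, n = 3), or 80.0% of the control signal. The steadiness of this mean over arrays hides a difference between its 4 features. Their means were -0.78, -0.31, -0.13 and -0.07, a range of 0.705, against a median range of 0.521 over the 105 genes with exactly 4 features. All 4 features were below 0 on each array, so the sign of the bic ratio rests on every feature while its size does not. Between the partners, Nacalpha lay above bic by 0.09 ± 0.06 (SD, n = 3), a difference smaller than the range of the bic features.

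**Figure D2:**
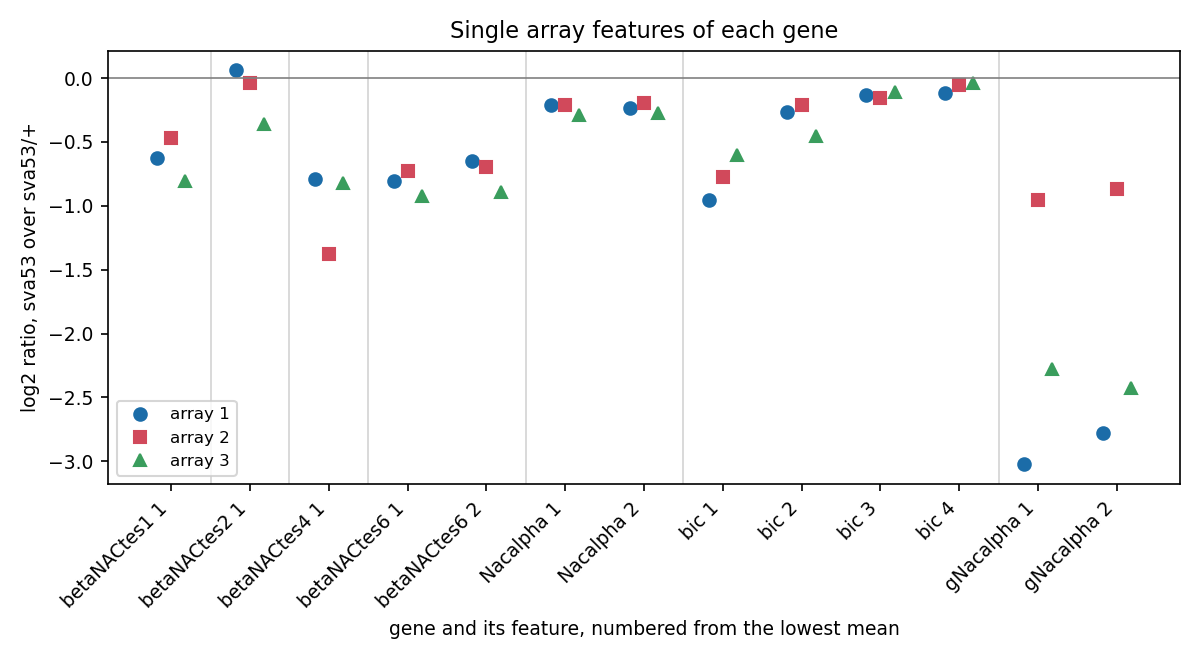
Log2 ratio of sva53 over sva53/+ (y axis) of each single array feature (x axis, numbered within a gene from the lowest mean), with 1 point for each array. The features of Nacalpha, betaNACtes6 and gNacalpha agree within a gene, while those of bic run from a mean of -0.78 to -0.07.

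Across the 6 measured genes, 17 of the 18 values by gene and array were below 0, and 5 of 6 genes and 10 of 11 features were below 0 on all 3 arrays. Over all named genes, 29.7% were below 0 on all 3 arrays. A mean at or under -0.5 was reached by 3 of the 6 genes and by 5.01% of named genes. In the limma fit over all 15415 named genes and unnamed features, which called 2135 of them (13.9%; 7.23% lower and 6.62% higher) at a Benjamini-Hochberg adjusted p under 0.05, betaNACtes1, betaNACtes4, betaNACtes6 and bic were called lower. Nacalpha and betaNACtes2 were not called, and 0 members were called higher. When features were fitted singly, 1 of the 4 bic features was called lower. Since the genes were picked with this contrast known, their count of 4 of 6 is not read against that background. The same holds for the counts of members below 0 and at or under -0.5, which only describe the chosen genes. Each call was lost when any 1 of the 3 arrays was left out, as were all others in the table.

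Outside the listed genes, the alpha-type partner had the lowest mean of the NAC-type genes and the widest spread. gNacalpha, annotated as a germline alpha subunit of NAC (also CG4415), read -2.90, -0.91 and -2.35 on arrays 1, 2 and 3. The mutant signal was low on all 3 arrays, but far less so on array 2. Its mean of -2.06 ± 1.03 (SD, n = 3) is a 4.16-fold lower signal and was the 8th lowest of 10805 named genes.

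Because the 3 pools differed so much, gNacalpha was not called (adjusted p 0.0566 with limma over all features). It passed when arrays were scaled to one spread (0.0421) and when trends over the array grid were removed (0.0475), and the adjusted p lay between 0.0421 and 0.196 over the alternatives that keep 1 value for each gene. With array weights its mean was -1.31 (adjusted p 0.0586). Both of its features showed the uneven ratio: they read -3.02 and -2.78 on array 1, -0.95 and -0.87 on array 2, and -2.28 and -2.43 on array 3. The mean of arrays 1 and 3 alone was -2.63, and that of arrays 2 and 3 alone was -1.63.

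gNacalpha was the lowest of these NAC-type genes on arrays 1 and 3, while on array 2 betaNACtes4 was lower than it by 0.46. Like gNacalpha, betaNACtes1, betaNACtes6, Nacalpha and bic were least low on array 2, by much smaller margins, while betaNACtes4 was lowest there. For bic arrays 2 and 3 were nearly equal (-0.299 and -0.301), as were arrays 1 and 2 for betaNACtes6 (-0.726 and -0.711). The higher feature of betaNACtes6 was least low on array 1 (-0.645, against -0.699 on array 2). The difference of gNacalpha minus Nacalpha, its counterpart in most cells, was -2.68, -0.71 and -2.07 on arrays 1, 2 and 3. The remaining annotated relative, uncNacbeta, read 0.01, -0.09 and -0.17, a mean of -0.08 ± 0.09 (SD, n = 3), and was not called (adjusted p 0.381 with limma).

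Genes that act in the ovarian germ line were measured beside these ratios. They were chosen after seeing the data, so their count of calls is not read against the background. None of 12 such genes was called, where 13.9% of all features were; their median was 0.06 and their means lay between -0.17 (aub, a piRNA-binding protein) and 0.28 (krimp, a piRNA pathway tudor protein; adjusted p 0.0539 with limma). mael, another piRNA pathway gene, averaged 0.14 ± 0.02 (SD, n = 3; adjusted p 0.12 with limma), and osk, the germ plasm organiser, averaged -0.12 ± 0.04. krimp was called higher with scaled arrays, with array weights and with grid trends removed (adjusted p 0.0365, 0.0205 and 0.0476 with limma). mael was called higher with array weights (adjusted p 0.0484 with limma). The features stood at 0.16 and 0.40 for krimp and at 0.052 and 0.225 for mael. With the lower feature, which had the smallest SD, neither was called (adjusted p 0.124 for krimp and 0.371 for mael with limma). The germline list median was -0.06, 0.03 and 0.10 on arrays 1, 2 and 3. Whether the number of germ cells differed between the genotypes was not tested.

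Since the betaNACtes genes are known from the testis, genes of the male germ line were counted as well. Of 28 measured, 5 fell, 2 rose and 21 were not called, with a median of -0.13 over the list, where 7.23% of all features were called lower and 6.62% higher. The lowest called were topi (-0.63 ± 0.09, SD, n = 3; adjusted p 0.0336 with limma), a regulator of spermatocyte transcription, and ProtB (-0.58 ± 0.22, SD, n = 3; adjusted p 0.0452 with limma, and 0.051 with the grid edge kept), a sperm protamine. Taf12L (-0.53 ± 0.18, SD, n = 3), a testis form of a TFIID subunit, was called too, but its 3 features disagreed, at -1.44, -0.36 and 0.22. The 2 that rose, CycB3 (0.51 ± 0.11, SD, n = 3), a mitotic-type cyclin, and Pen (0.35 ± 0.11, SD, n = 3), an importin alpha, also act in the female germ line, and Pen was not called with grid trends removed (adjusted p 0.0587 with limma). betaNACtes4 and betaNACtes6 had lower means than every called gene of this list, while ocn, a sperm protein gene that was not called (adjusted p 0.0825 with limma), averaged -0.83 ± 0.52.

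Ovary dissections can carry other tissue. Fat body genes fell in 3 of 9 measured members, Pepck1 (-1.80 ± 0.20), Lsd-1 (-1.71 ± 0.40) and Obp99b (-1.52 ± 0.63), with 0 higher (SD, n = 3 each; adjusted p 0.0246, 0.0344 and 0.0444 with limma), where 7.23% of all features were called lower. Obp99b was not called with the grid edge kept (adjusted p 0.052 with limma). The median of the 9 fat body genes was -0.03, and 5 of the 9 means lay below 0. Fbp2 (0.50 ± 0.44) and Lsp2 (0.39 ± 0.87) had the highest means and were not called. Of 12 muscle genes 0 were called, where 13.9% of all features were, and their median was 0.20. The smallest p-values were those of flw (0.33 ± 0.11, adjusted p 0.0517 with limma) and Argk1 (0.36 ± 0.17, adjusted p 0.066 with limma). Both were called higher with scaled arrays, with the feature of smallest SD and with array weights, and flw also with centred arrays, without exact zeros and with grid trends removed (adjusted p between 0.0146 and 0.0492 for flw with limma). Their part in the ratios of the NAC genes was not tested.

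The other genes that act on new chains moved in both directions. Over 7 lists of ribosome-bound chaperones, N-terminal processing, signal recognition, translocation, prefoldin, CCT and ribosome rescue, 62 genes were measured, of which 10 fell, 3 rose and 49 were not called. That is 21.0% called, against 13.4% of all named genes (7.04% lower and 6.36% higher). Their median was -0.08, between the -0.003 of all named genes and the values of Nacalpha and bic.

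The signal recognition particle takes ribosomes with a signal sequence to the membrane and competes with NAC for them. In the particle and its receptor, 3 of 7 genes fell and 1 rose, where 7.23% of all features were called lower and 6.62% higher. Srp19 (-0.52 ± 0.10) and Srp9 (-0.36 ± 0.08), proteins of the particle, and SrpRalpha (-0.40 ± 0.09), a subunit of its receptor, fell (SD, n = 3 each; adjusted p 0.0346, 0.0398 and 0.0382 with limma). Srp68, a further protein of the particle, rose by 0.30 ± 0.06 (SD, n = 3; adjusted p 0.0433 with limma), but its features stood at 0.12 and 0.48, and the call was lost with the lower one, which had the smallest SD. Srp54k, which binds the signal sequence, averaged 0.08 and was not called (adjusted p 0.327 with limma).

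At the membrane, 2 of 14 genes of the translocon and signal peptidase fell and 0 rose, where 7.23% of all features were called lower. Both encode signal peptidase subunits, Spase12 (-0.42 ± 0.10) and Spase22-23 (-0.34 ± 0.06; SD, n = 3 each; adjusted p 0.0379 and 0.0386 with limma). The features of Spase22-23 stood apart, at -0.50 and -0.19. The list median was -0.29, and it was lowest on array 1 (-0.38, against -0.23 and -0.18 on arrays 2 and 3). Sec61beta shows the same order, with -0.66, -0.26 and -0.17, and was not called (adjusted p 0.118 with limma).

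Prefoldin, which hands new actin and tubulin chains to the CCT chaperonin, had 2 of 5 measured genes lower, against 7.23% of all features. Pfdn5 averaged -0.33 ± 0.03 and Pfdn4 -0.24 ± 0.02 (SD, n = 3 each; adjusted p 0.0379 and 0.0499 with limma), and Pfdn4 lost the call with centred arrays, without exact zeros, with a robust prior and with grid trends removed. Of the 8 CCT subunit genes 0 were called, where 13.9% of all features were, and their median was -0.02. CCT6 (0.14) and CCT2 (0.10) had the smallest p-values (adjusted p 0.141 and 0.258 with limma).

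Among 8 measured genes of ribosome rescue and chain quality control, 2 fell and 1 rose, against 7.23% lower and 6.62% higher of all features. TER94, the ATPase that pulls ubiquitylated proteins out of complexes, read 0.67, 0.70 and 0.45 and rose (mean 0.61 ± 0.14, SD, n = 3; adjusted p 0.0346 with limma). Its cofactor Ufd1 went the other way and fell, at -0.42, -0.54 and -0.47 (mean -0.48 ± 0.06, SD, n = 3; adjusted p 0.0344 with limma). The other cofactor, Npl4, averaged 0.33 ± 0.15 and was not called (adjusted p 0.0675 with limma). eIF6, which keeps the large ribosomal subunit from joining too early, fell (-0.58 ± 0.23, SD, n = 3; adjusted p 0.046 with limma, and 0.0523 with the grid edge kept).

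Of 5 genes of ribosome-bound and cytosolic chaperones only Droj2, a DnaJ-type co-chaperone, was called, where 13.9% of all features were. Droj2 rose (0.33 ± 0.06, SD, n = 3, adjusted p 0.0401 with limma), but its features stood apart, at 0.14 and 0.53. Hsc70-4, the main cytosolic Hsp70-type chaperone, averaged 0.05 ± 0.05 and was not called. In N-terminal processing 1 of 15 genes was called, where 13.9% of all features were. It was CG13630 (-0.31 ± 0.09, SD, n = 3, adjusted p 0.0494 with limma). This call was lost with scaled arrays, with a robust prior and with the grid edge kept.

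The Stellate genes are X-linked repeats whose promoter is held to come from a betaNACtes gene and whose coding part comes from a casein kinase 2 beta subunit. Of 9 listed Stellate and casein kinase 2 genes 4 were measured. Of these 2 fell, where 7.23% of all features were called lower. They were CkIIalpha-i3 (-0.58 ± 0.19), named as an interactor of the kinase alpha subunit, and CkIIbeta2 (-0.41 ± 0.07), a beta subunit paralog (SD, n = 3 each, adjusted p 0.0404 and 0.0355 with limma). Ssl, the only Stellate-like gene among the 4, averaged -0.04 ± 0.28 and was not called (adjusted p 0.823 with limma).

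**Figure D3:**
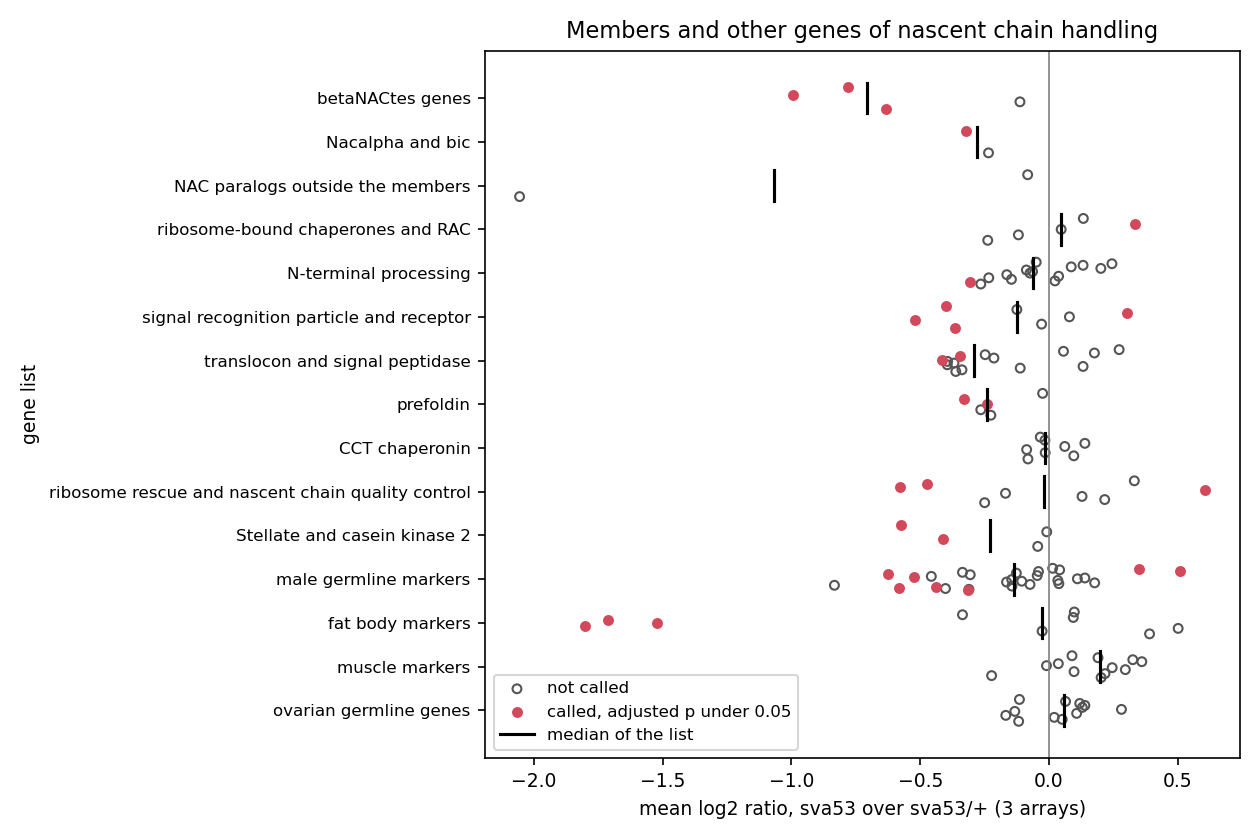
Mean log2 ratio of sva53 over sva53/+ over 3 arrays (x axis) of each gene in a list (y axis), with called genes filled and the list median as a black line. The medians of the chaperone, processing and targeting lists lie between -0.29 and 0.05, and gNacalpha stands at -2.06 among the NAC paralogs.

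All 6 betaNACtes genes lie on the X chromosome, in 3 places in the RefSeq table of assembly GCF_000001215.4. betaNACtes2, betaNACtes6, betaNACtes3 and betaNACtes4 follow each other, and the span of dpr8 overlaps those of betaNACtes3 and betaNACtes4. betaNACtes1 and the pseudogene betaNACtes5 lie apart. Nacalpha and bic lie on chromosome arm 2R and gNacalpha on 2L. Of 1601 X-linked named genes, 8.06% were called lower and 7.5% higher, against 6.91% lower and 6.13% higher of 9148 genes of the major autosomal arms. The medians were -0.009 for X-linked and -0.003 for autosomal genes.

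The nearest measured genes on each side were therefore read beside the betaNACtes genes. Of 19 neighbours 2 fell and 0 rose, where 8.06% of X-linked named genes were called lower, and their median was -0.05. Around betaNACtes1, CG12479 fell (-0.32 ± 0.09, SD, n = 3; adjusted p 0.0457 with limma), while CG12480, whose span overlaps that of betaNACtes1, averaged -0.01 ± 0.22. The others there were not called: ben, a ubiquitin-conjugating enzyme gene, averaged -0.20, CG11581 -0.01, CG12481 0.04 and CG11584 -0.45 with an SD of 0.77.

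Around the row of 4 copies no neighbour was called. dpr8, an immunoglobulin-domain gene whose span overlaps that of betaNACtes4, averaged 0.22 ± 0.20, against the -0.99 of betaNACtes4. The 3 features of dpr8 read -0.06, 0.01 and 0.70, and its mean was 0.11 without array 1 and -0.06 with the feature of smallest SD. The means of CG13404 (-0.15), na (-0.29), a sodium leak channel gene, CG9400 (0.04), CG9411 (-0.07), CG12540 (-0.02) and CG14414 (0.12) all lay above those of betaNACtes6 and betaNACtes4. This did not hold for betaNACtes2, whose mean of -0.11 lay above those of na and CG13404.

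Beside the pseudogene betaNACtes5, CG42299 was called lower (-0.39 ± 0.07, SD, n = 3; adjusted p 0.0367 with limma), but its 3 features read -0.81, -0.53 and 0.17, and it turned sign with the feature of smallest SD. CG15643 (0.31), CG9213 (-0.05), CG7872 (-0.10), CG9215 (-0.16) and cerv (0.09), a subunit gene of the Smc5/6 complex, were not called. The features of CG15643 read -0.145 and 0.76, and those of CG9213 read -0.525 and 0.418. CG15643 was called higher with centred arrays, scaled arrays, the feature of smallest SD and array weights (adjusted p 0.0493, 0.0371, 0.0256 and 0.0147 with limma).

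**Figure D4:**
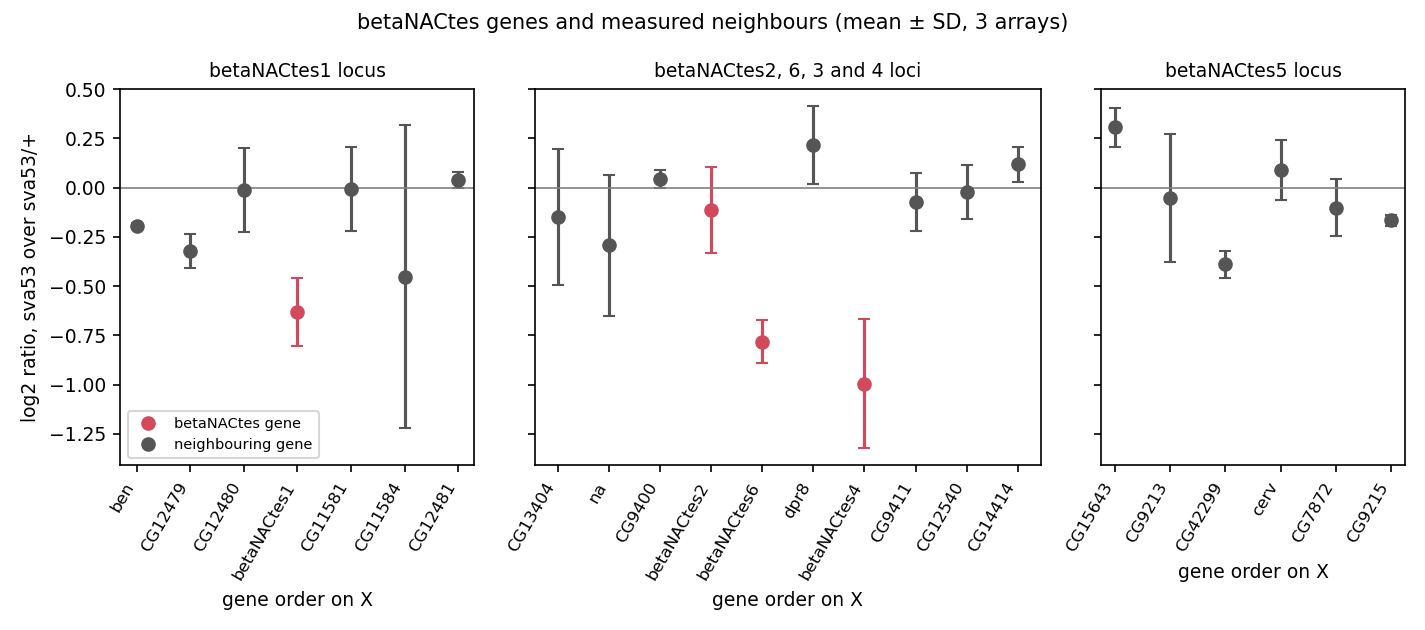
Mean log2 ratio of sva53 over sva53/+ with its SD over 3 arrays (y axis) for the measured betaNACtes genes (red) and their nearest measured neighbours (grey), in their order on the X chromosome (x axis, not to scale). betaNACtes1, betaNACtes6 and betaNACtes4 lie at -0.63, -0.78 and -0.99, below all 19 neighbours, whose lowest mean is -0.45. betaNACtes2, at -0.11, lies within the range of the neighbours.

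The genes with the ratios most like the mean of the 4 measured betaNACtes copies were found by Euclidean distance over the 3 arrays. That mean was -0.52, -0.65 and -0.72. It stands for no single copy, since betaNACtes2 averaged -0.11 and betaNACtes4 -0.99. The closest were CG15109 (distance 0.0724 log2 units), sev, a receptor tyrosine kinase gene (0.0741), GstE13, a glutathione transferase gene (0.0972), RpL10Aa, a ribosomal protein paralog (0.122), and CG10903 (0.123). Their means lay between -0.63 and -0.58. By the same measure gNacalpha stood 2.9 units away and uncNacbeta 0.949.

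Repeated for gNacalpha after its values were seen, the measure gave larger distances. The closest were RpL22-like, a ribosomal protein paralog (0.747), CG10654 and HP6, an HP1-type chromatin gene (0.779 each), CG4408 (0.835) and blanks, a double-stranded RNA-binding protein gene needed for sperm formation (0.853). Each of these 5 was less low on array 2 than on arrays 1 and 3, which choosing them by nearness to gNacalpha favours. CG4408, the second lowest of all named genes at -2.46 ± 1.26 (SD, n = 3), was not called either (adjusted p 0.0582 with limma).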

How the data were processed

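RNA of 3 pools of sva53 ovaries and of 1 sva53/+ reference was measured on 3 two-colour Agilent arrays. Per the labels, 100 ng of total RNA was amplified and labelled. The deposited values are log10 ratios for 22575 features, made with Agilent Feature Extraction 7.1, per the submitters' processing notes; how background and dyes were corrected is not given in the sources used here. They were turned to log2 of mutant over control. The 636 features at the grid edge, of which 0 are annotated, were dropped. A gene's features were averaged, giving 15415 rows (10805 named genes), and 10801 genes matched RefSeq by identifier. The test was limma 3.58.1 under R 4.3.3 on each row (lmFit, eBayes, 2-sided, Benjamini-Hochberg adjusted p under 0.05); the procedure was tested on simulated data. SDs are over 3 arrays, whose number limits the precision.

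The members and lists were chosen with earlier results of these data known. Named from each list were up to 3 highest and 3 lowest called genes, or the 2 of smallest p. All members, NAC paralogs and neighbours, and the 5 genes nearest in pattern, were also named. Other genes, the 12 ovarian germline genes, and the removal of grid trends were chosen after seeing the data. List entries were matched by symbol or a unique synonym; 2 entries that resolved to genes of another role were dropped. Alternatives were centring, scaling, single features, the feature of smallest SD, removal of exact zeros, a robust prior, array weights, a stricter threshold, the grid edge kept, and leaving out each array.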

Additional observations from a re-analysis of the deposited data

How the results depend on the processing

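Leaving out any 1 array gave 0 called features in limma (range 0 to 0 for members, list genes and neighbours as well), while an unadjusted p under 0.05 was reached by 4710, 3277 and 4304 features when array 1, 2 or 3 was missing. With an adjusted p under 0.01 limma also called 0 features, 0 members, 0 list genes and 0 neighbours; the lowest adjusted p was 0.0123 and 5588 features had an unadjusted p under 0.05. The 4 members called lower stayed 4 in number under 8 other alternatives and were 5 with array weights. Nacalpha was called with array weights and with its feature of smallest SD; bic was not called with the latter, where it read -0.13. Without 1 array, betaNACtes4 read between -1.10 and -0.81, betaNACtes6 between -0.82 and -0.72, betaNACtes1 between -0.72 and -0.54, bic between -0.33 and -0.30, Nacalpha between -0.25 and -0.21, and betaNACtes2 between -0.20 and 0.01.

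Single features gave 1730 higher calls over the table, 6 higher list genes and 2 higher neighbours. The feature of smallest SD per gene gave 1660 higher and 1758 lower features, 8 higher and 19 lower list genes, and 2 higher and 1 lower neighbours. Array weights gave 2869 higher and 2935 lower features, 9 higher and 24 lower list genes, and 1 higher and 5 lower neighbours. Centring and scaling each gave 1 higher neighbour. The cause of these shifts was not tested. Among members betaNACtes2, which was not called, turned sign without array 3 (0.009). The other signs that turned were of neighbours. With the feature of smallest SD these were CG42299 (0.17), CG9213 (0.42), ben (0.002) and dpr8 (-0.062). With array weights they were CG12480 (0.14), CG12540 (0.051), CG7872 (0.004) and CG9213 (0.13). CG12480 also read 0.002 with scaled arrays and with grid trends removed, 0.085 without array 1 and 0.007 without array 3. With 1 array left out, CG9411 ranged from -0.121 to 0.012, CG11581 from -0.099 to 0.111, CG12540 from -0.082 to 0.053 and CG9213 from -0.203 to 0.119. No paired analysis was possible because the 3 mutant pools share 1 control RNA.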
